A study of Mus musculus with 2 samples.

Results

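MG1 is a cluster of connective tissue cells from the meningeal side of the embryonic mouse coronal suture. The study proposed that MG1 is part of the periosteal dura mater. Its members were taken as the cells that the authors' table of osteogenic and mesenchymal cells assigns to MG1. They were 451 of the 12165 labelled cells and of the 16977 cells used in all. At E15.5 there were 28 MG1 cells among 5335 labelled cells, matched from 30 in the table, and at E17.5 there were 423 among 6830. The values below therefore rest mainly on E17.5.

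All cells came from the coronal suture of wild type C57/BL6 embryos, from which the skin, the brain and part of the meninges had been peeled away, and were captured with 10x Genomics Chromium 3′ chemistry. For the E15.5 library 10 sutures were pooled as 1 batch, digested with dispase and collagenase II, and cleared of dead cells with a kit. The E17.5 library joins 3 batches from 2 litters, for which collagenase IV was used and cells were selected by FACS. The age of the embryos therefore cannot be told apart from the enzymes, the sorting and the embryos used, and the stages are set side by side without a test. E17.5 barcodes carry a suffix from 1 to 3, which the sources used here do not tie to the batches. No barcode was shared between MG1 cells of the stages or of suffixes 2 and 3, whereas between 8 and 42 barcodes were shared by any pair of suffixes or stages among all cells used.

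The dura mater is the outer, fibrous sheet of the meninges, and its periosteal layer lines the inner face of the skull bones. Beneath it lie the dural border cells, the arachnoid and the pia mater. The dura is known as a source of growth factors and matrix that act on the bone fronts and on the patency of the sutures, and connective tissue on the inner face of a suture can form cartilage in some settings. Levels are given in CPM, the UMIs (unique molecular identifiers, each standing for 1 captured RNA molecule) of a gene summed over the cells of a cluster per 1000000 UMIs of that cluster, and intervals for them are exact Poisson 95% intervals. For shares of cells the intervals are exact binomial (Clopper-Pearson) 95% intervals. Both cover counting error only. The authors defined the clusters from the expression of these cells, so levels describe the clusters and carry no p-value.

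MG1 cells were unevenly spread over the E17.5 library. Suffix 1 held 0 MG1 cells among 1234 labelled cells, which allows a share of up to 0.243% at a limit of 3 counts and 0.299% by the exact interval, whereas suffix 2 held 193 among 2770 (6.97%, 6.05 to 7.98) and suffix 3 held 230 among 2826 (8.14%, 7.16 to 9.21). MG2, the meningeal cluster closest to MG1 in its profile, was present in all of them, with 149, 155 and 169 cells. LIG, the ligament-like cluster above the suture, had 32 cells in suffix 1 against 314 and 329 in suffixes 2 and 3. MG1 made up 6.19% (5.63 to 6.79) of the labelled cells at E17.5 and 0.525% (0.349 to 0.758) at E15.5. The matrix gives no value of MG1 in suffix 1, so the calls of single genes below were made within suffix 2 and within suffix 3.

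Depth was close to that of the other labelled cells. MG1 cells had a median of 12095 UMIs and 3256 genes at E17.5 (11709 UMIs in suffix 2 and 12484 in suffix 3), where all labelled cells had a median of 12302 UMIs and MG2 cells of 9260. At E15.5 the median in MG1 was 7948 UMIs. The authors' table places 306 of the 423 E17.5 cells in G1, 72 in S and 45 in G2/M, so 27.7% (23.5 to 32.2) were outside G1, against 10.4% (7.76 to 13.5) in MG2 and 23.4% in LIG. Of MG1 cells, 8.98% were at or above the 94th percentile of doublet scores of their suffix, against 3.81% of MG2 cells.

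*Xist* and Y-linked RNA also differed between clusters. At E17.5 the level of *Xist*, the RNA that coats the inactive X chromosome of female cells, was 19.6 CPM in suffix 2 and 13.4 CPM in suffix 3 in MG1, against 349 and 322 CPM in MG2. A UMI of a Y-linked gene (*Ddx3y*, *Eif2s3y*, *Uty* or *Kdm5d*) was found in 78.2% and 77.0% of MG1 cells, against 36.8% and 52.1% of MG2 cells. MG4 (9.65 and 32.6 CPM) and EC2 (5.93 and 13.9 CPM) were also low in *Xist* in these suffixes, and EC2 had 220 CPM in suffix 1. At E15.5 the levels of *Xist* were close, at 672 CPM (576 to 779) in MG1 and 617 CPM (589 to 646) in MG2. An *Xist* UMI was found there in 82.1% of MG1 and 53.4% of MG2 cells, and a Y-linked UMI in 25.0% and 31.4%. MG1 at E17.5 thus came mostly from cells with Y-linked RNA, and its differences from other clusters are also given below for cells with a Y-linked UMI and no *Xist* UMI, which left 137 and 156 MG1 cells and 43 and 75 MG2 cells in suffixes 2 and 3. Calls among these cells were made within suffixes 2 and 3. Their levels and folds were taken over the whole library, so those of MG2 also rest on 82 such cells of suffix 1.

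**Figure D1:**
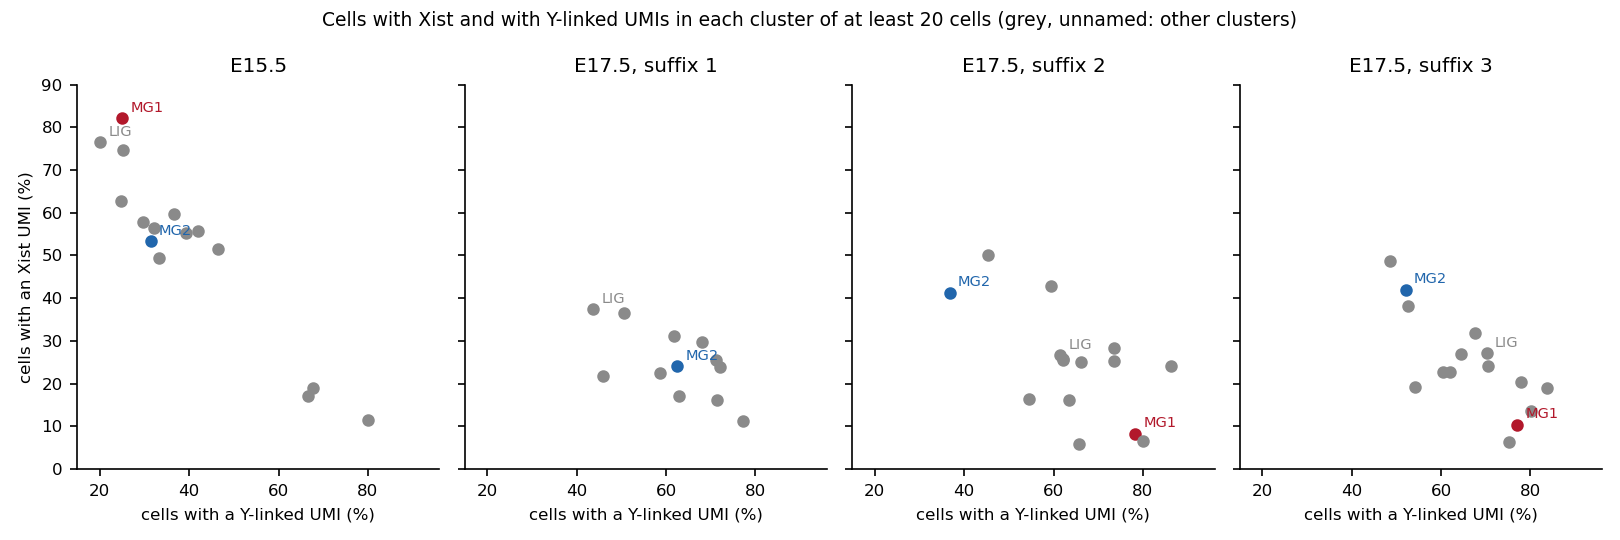
Share of cells with an *Xist* UMI (vertical axis, %) against the share with a UMI of 4 Y-linked genes (horizontal axis, %), 1 point per cluster of at least 20 cells, for E15.5 and the 3 barcode suffixes at E17.5. MG1 (red) sits at 82.1% *Xist* and 25.0% Y-linked at E15.5 and at 8.29% and 10.4% *Xist* in suffixes 2 and 3 at E17.5, and it has no point in suffix 1.

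*Matn4*, *Lgr5* and *Tnmd*, the genes that mark MG1, were each highest in MG1 among the 15 clusters at E17.5, but MG2 was close for *Matn4* and LIG for *Tnmd*. *Matn4* (ENSMUSG00000016995, chromosome 2 from 164389393 to 164405160 in GRCm38) encodes matrilin-4, an adaptor protein of the extracellular matrix that is also made by cartilage. It was 423 CPM (406 to 441) in MG1, with 372 in suffix 2 and 464 in suffix 3. MG2 followed at 304 CPM (288 to 320) and LIG at 106 CPM, and the other clusters lay between 7.15 CPM in OG4 and 84.3 CPM in EC3. Cartilage cells without a label, described below, had 590 CPM. *Matn4* did not separate MG1 from MG2 by the 2-fold limit used below, since the fold was 1.24 in suffix 2 and 1.71 in suffix 3.

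*Lgr5* (ENSMUSG00000020140, chromosome 10 from 115450311 to 115587780) encodes a receptor for R-spondins that strengthens Wnt signalling and marks stem cells in several tissues. It was 67.4 CPM (60.7 to 74.6) in MG1, with 67.9 in suffix 2 and 66.9 in suffix 3. EC3 followed at 14.7 CPM (9.86 to 21.2) and LIG at 7.71 CPM (6.02 to 9.73), and MG2 had 2.07 CPM from 10 UMIs. No other cluster was above 2.23 CPM. Over all other labelled cells the fold was 31.9 (26.7 to 38.3), and it was 25.0 within suffix 2 and 27.8 within suffix 3.

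*Tnmd* (ENSMUSG00000031250, X chromosome from 133850980 to 133865577) encodes tenomodulin, a membrane glycoprotein of tendon and ligament cells. It was 704 CPM (682 to 726) in MG1, with 708 in suffix 2 and 700.1 in suffix 3. LIG was close behind at 664 CPM (647 to 681), EC4 had 404 CPM, and MG2 had only 64.7 CPM (57.7 to 72.2). *Tnmd* therefore set MG1 apart from MG2 (fold 10.9, 9.70 to 12.3) but hardly from LIG.

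**Figure D2:**
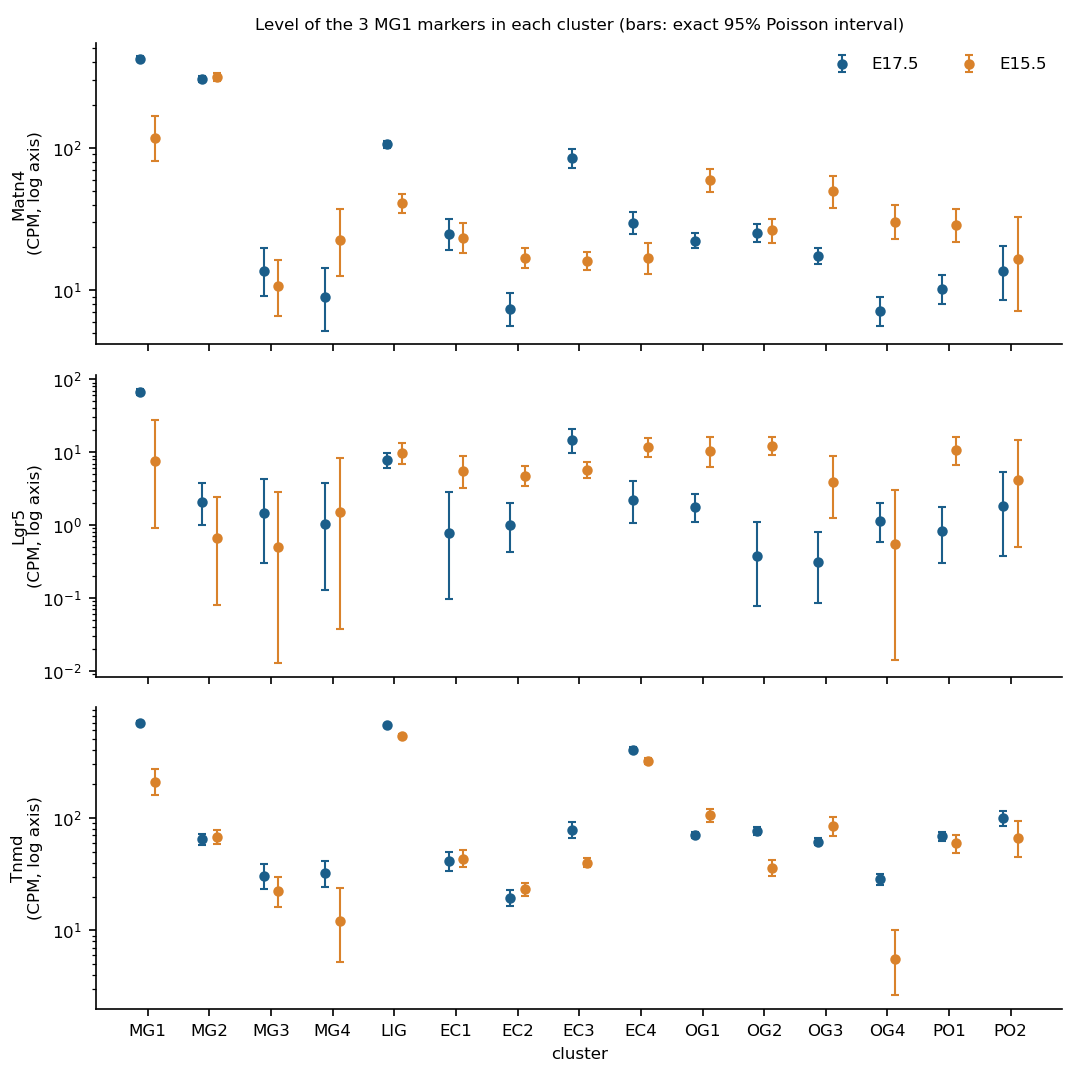
Level of *Matn4*, *Lgr5* and *Tnmd* (CPM, log axes) in each of the 15 labelled clusters at E17.5 (blue) and E15.5 (orange), with exact 95% Poisson intervals. At E17.5 MG1 is the highest point in all 3 panels, at 423, 67.4 and 704 CPM, next to MG2 for *Matn4* and to LIG for *Tnmd*.

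The markers were seen together in single MG1 cells. *Matn4* was detected in 78.0% of the 423 cells, *Lgr5* in 45.4% and *Tnmd* in 90.5%, and the shares in suffixes 2 and 3 were 45.1% and 45.7% for *Lgr5*. After each cell was thinned to 5000 UMIs, which left out 11 cells of MG1, 26 of MG2 and 18 of LIG, these shares were 63.4%, 25.0% and 83.5% in MG1. Thinned MG2 cells had 63.8%, 0.224% and 23.9%, and thinned LIG cells 31.8%, 2.89% and 85.1%. All 3 markers were detected in 144 MG1 cells (34.0%, 29.5 to 38.8), none in 4 cells. The same combination was found in 4 of 473 MG2 cells, 32 of 675 LIG cells (4.74%) and 55 of the 6407 labelled cells outside MG1 (0.858%). As a background, 208 unlabelled cells with at least 5 UMIs of the cartilage gene *Matn1*, a cell type that should lack *Lgr5* and *Tnmd*, had 0 cells with *Lgr5* and 18.8% with *Tnmd*. Their median depth was 11195 UMIs. The share with *Tnmd* at full depth was 35.3% in MG2, at a median of 9260 UMIs, and that of *Lgr5* was 2.11%.

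*Lgr5* with *Tnmd* was also rare in suffix 1, which held no MG1 label. The pair was detected in 79 of 193 MG1 cells in suffix 2 and 95 of 230 in suffix 3, and in 51 of 2577 and 48 of 2596 other labelled cells. It was found in 0 of the 1234 labelled and 0 of the 296 unlabelled cells of suffix 1. *Lgr5* by itself was detected there in 1 labelled and 0 unlabelled cells, so the lack of the pair follows from that of *Lgr5*. Among labelled cells outside MG1 *Lgr5* was detected in 2.83% in suffix 2 and 2.81% in suffix 3.

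*Lgr5*, *Epyc*, *Cnmd*, *Fam19a5* and *Npr3* had the largest folds in MG1. A gene was called higher or lower when it differed by at least 2-fold in suffix 2 and in suffix 3, each against the comparison cells of its own suffix, among genes with at least 20 CPM in either group. A gene could thus enter through the group where it was high. Against the other labelled cells 5716 genes were compared, of which 189 were higher in MG1 (3.31%) and 196 lower (3.43%), and the median log2 fold over all of them was -0.08. MG1 ranked first among the 15 clusters for 81 of the 189 genes. Among cells with a Y-linked UMI and no *Xist* UMI 194 genes were higher, of which 177 were among the 189, and 203 were lower, of which 185 were among the 196. The 30 genes with the largest folds among those called higher, with at least 100 UMIs in MG1, spanned 4.73-fold to 31.9-fold, and their levels in suffixes 2 and 3 differed by at most 1.33-fold.

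Several of the 30 encode matrix proteins. *Epyc*, a small leucine-rich proteoglycan of cartilage, was 251 and 219 CPM in the suffixes of MG1 and 233 CPM (221 to 246) over the library, against 14.1 CPM in the other labelled cells and 41.1 CPM in MG2. *Cnmd*, which encodes chondromodulin, the relative of tenomodulin in cartilage that restrains blood vessel growth, was 115 and 153 CPM in the suffixes, against 11.2 CPM in the other cells. *Col9a2*, a chain of the cartilage collagen IX, was 185 CPM against 26.3 CPM. *Fmod*, the collagen-binding proteoglycan fibromodulin, was 796 CPM (792 and 800.1 in the suffixes) against 139 CPM. *Col14a1*, a fibril-associated collagen of dense connective tissue, was 745 CPM against 114 CPM, but it was also high in MG2 (665 CPM) and MG3 (794 CPM). *Abi3bp*, a matrix protein that binds collagen, was 187 and 240 CPM in MG1, 21.7 CPM in the other cells and 10.1 CPM in MG2. *Thbs1*, the matricellular protein thrombospondin-1, was 456 CPM against 94.95 CPM, and *Egfl6*, a matrix protein with EGF repeats, was 230 CPM against 40.1 CPM. MG2 had 294 CPM of *Thbs1* and 113 CPM of *Egfl6*.

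Among binding proteins, *Igfbp2*, which holds insulin-like growth factors, had the highest level of the 30, at 3459 CPM (3411 to 3509) in MG1 and 334 CPM in the other labelled cells. It was nearly as high in MG4 (3288 CPM) and was 620 CPM in MG2. *Ltbp2*, a fibrillin-associated protein of the latent TGF-β binding protein family, was 115 CPM against 18.3 CPM, with 92.3 CPM in MG2. The receptors were *Lgr5*, *Fzd9* (a Frizzled receptor for Wnt proteins, 59.4 against 8.13 CPM), *Npr3* (the clearance receptor of natriuretic peptides, 26.7 against 2.52 CPM), *Epha5* (70.3 against 11.8 CPM) and *Epha7* (75.0 against 15.9 CPM), the last pair being receptors of ephrins. Both *Epha5* and *Epha7* were highest in MG4 rather than in MG1. *Rgs4*, which shortens signalling by G proteins, was 20.3 against 2.40 CPM.

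The transcription factors among the 30 were *Tbx18* and *Foxd1*. *Tbx18*, a T-box factor of meningeal and mural cells, was 40.5 and 42.5 CPM in the suffixes of MG1 and 4.42 CPM in the other labelled cells, and MG4 was higher still, at 70.0 CPM. *Foxd1*, a forkhead factor of mesenchymal progenitors, was 130 CPM against 21.6 CPM, and was higher in MG3 (207 CPM) and MG4 (182 CPM). *Aldh1a1*, an enzyme that makes retinoic acid, was 31.2 against 3.62 CPM, *Csgalnact1*, which starts chondroitin sulfate chains, was 27.1 against 3.50 CPM, and *Pgm5*, a protein of cell adhesions, was 50.9 against 6.50 CPM. *Slc5a3*, the sodium-coupled carrier of inositol, was 32.9 against 5.27 CPM. *Csgalnact1*, *Pgm5* and *Slc5a3* were likewise highest in MG4. *Fam19a5*, a secreted protein, was 71.2 against 6.10 CPM, and *Veph1*, an adaptor protein with a lipid-binding domain, was 38.1 against 6.03 CPM. *1500015O10Rik*, which encodes the secreted protein augurin, was 1873 CPM in MG1, 1880 CPM in MG2 and 330.0 CPM in the other labelled cells. *Camk4*, a calcium-dependent kinase, was 53.2 against 9.67 CPM.

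The cartilage list held 28 genes, of which 16 passed the limit of 20 CPM, 13 were called higher in MG1 and 1 lower. Of all genes compared 3.31% were higher and 3.43% lower. The median log2 fold of the 16 was 1.76, and MG1 ranked first for 10 of them. *Epyc*, *Cnmd*, *Sox9* and *Chad* passed the limit only through MG1, so the count and the median are partly set by the filter. *Col2a1*, the main collagen of cartilage, was 107 and 102 CPM in the suffixes of MG1, against 32.2 CPM in the other cells and 59.3 CPM in MG2. *Acan*, the large aggregating proteoglycan of cartilage, was 140 and 144 CPM, against 35.8 and 99.0 CPM. *Sox9*, the transcription factor that drives cartilage formation, was 34.0 and 29.1 CPM, against 10.1 CPM in the other cells, and it did not set MG1 above MG2 (37.0 CPM). *Col11a1*, a collagen of thin cartilage fibrils, was 1172 against 253 CPM, *Col27a1*, a fibrillar collagen of growing cartilage, 157 against 44.6 CPM, and *Hapln1*, which links aggrecan to hyaluronan, 64.1 against 20.5 CPM. *Col11a2*, a second chain of collagen XI, was the 1 lower gene, at 23.4 against 56.7 CPM.

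These levels stayed far below those of cartilage cells in the same library. The 208 unlabelled cells with at least 5 *Matn1* UMIs had 10070 CPM of *Col2a1*, 1056 CPM of *Acan* and 392 CPM of *Sox9*. Summed over the list, MG1 had 2717 CPM (2694 and 2736 in the suffixes), MG2 1562 CPM, LIG 1009 CPM, the other labelled cells 725 CPM and the *Matn1*-high cells 49930 CPM. Single genes differed in their ratio to those cells. *Epyc* was 233 CPM in MG1 and 34.4 CPM in the *Matn1*-high cells and *Fmod* was 796 and 484 CPM. *Matn1*, by which those cells were chosen, was 9.81 CPM in MG1 and 7.69 CPM in the other labelled cells. The list of hypertrophic cartilage, the late stage that precedes bone, went the other way, with 0 of 7 genes higher, 6 lower and a median log2 fold of -2.42. Among all genes compared with the other labelled cells 3.31% were higher and 3.43% lower. Most of its members are also osteoblast genes, among them *Ibsp* (116 against 1776 CPM) and *Panx3* (6.72 against 62.3 CPM). Between MG1 and MG2, 0 of 5 genes compared on this list were called in either direction. Over all genes in that comparison 1.35% were higher and 2.13% lower, so 5 genes are too few to read this count.

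**Figure D3:**
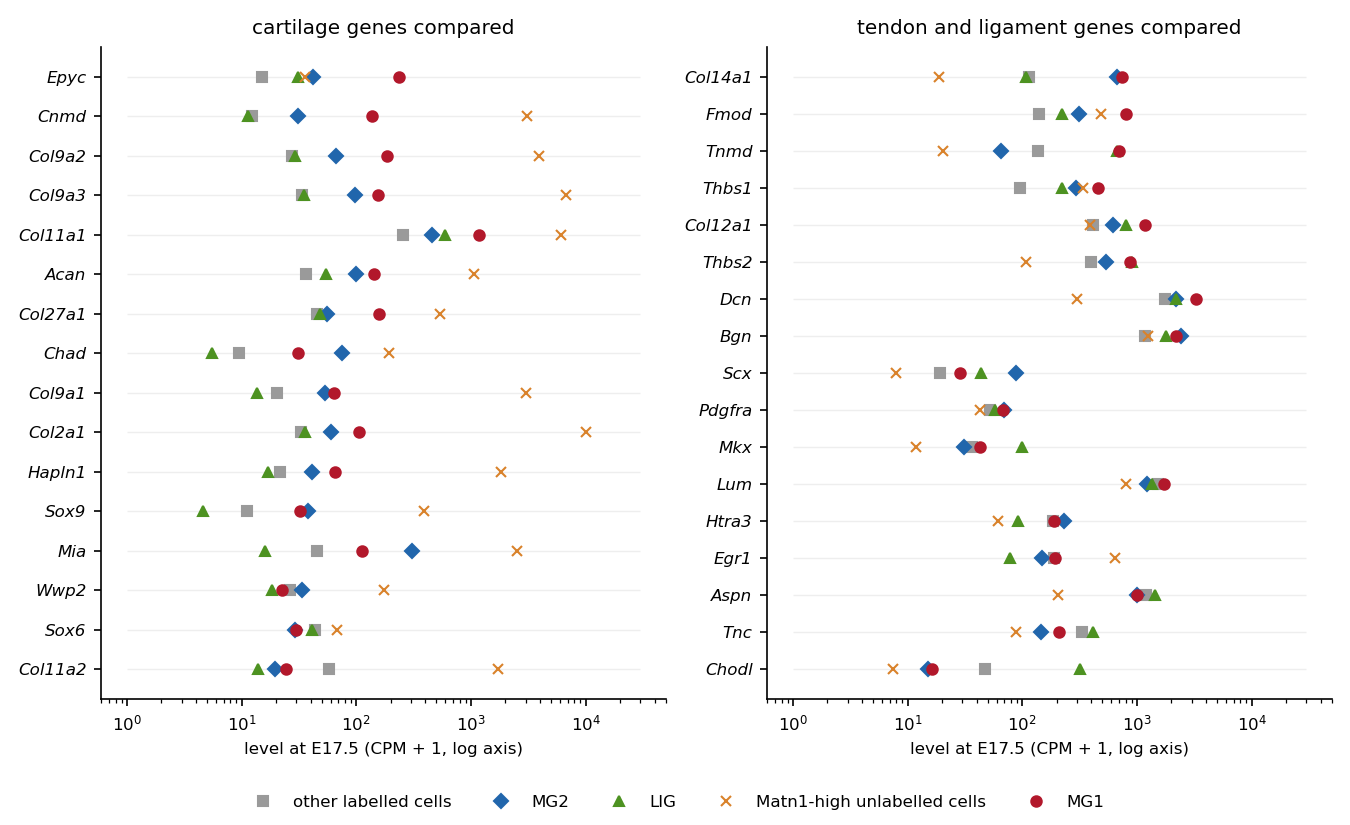
Levels at E17.5 (CPM + 1, log axes) of the genes of the cartilage list (left) and of the tendon and ligament list (right) that reached 20 CPM in MG1 or in the other labelled cells. MG1 (red circles) lies to the right of the other labelled cells (grey squares) for 13 of 16 cartilage genes by at least 2-fold, and to the left of the *Matn1*-high unlabelled cells (orange crosses) for *Col2a1* (104 against 10070 CPM).

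The tendon and ligament list had 6 genes higher in MG1 and 1 lower among 17 compared, with a median log2 fold of 0.59. Of all genes compared 3.31% were higher and 3.43% lower, and *Tnmd* is itself an MG1 marker. The higher genes were *Tnmd*, *Fmod*, *Thbs1*, *Col14a1*, *Thbs2* (872 against 395 CPM), which encodes the matricellular protein thrombospondin-2, and *Col12a1* (1177 against 415 CPM), a fibril-associated collagen of tendon and bone surfaces. The transcription factors of tendon did not follow. *Scx*, the factor that marks tendon progenitors, was 27.4 CPM in MG1 and 18.2 CPM in the other cells, and was higher in MG2 (87.6 CPM). *Mkx*, a homeobox factor of tendon, was 41.4 CPM in MG1, 35.5 CPM in the other cells and 98.2 CPM in LIG. *Chodl*, a lectin-like membrane protein, was 15.4 CPM in MG1 and 320 CPM in LIG. *Sfrp2*, a secreted modulator of Wnt signalling, was 3332 CPM in MG1 and 10090 CPM in LIG. MG1 thus shared *Tnmd* and *Thbs2* with LIG (902 CPM) at near levels, while *Matn4*, *Epyc*, *Fmod* and *Igfbp2* were 423, 233, 796 and 3459 CPM in MG1 and 106, 30.0, 221 and 886 CPM in LIG.

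The small leucine-rich proteoglycans, which bind and space collagen fibrils, had 5 genes higher and 1 lower among 11, with a median log2 fold of 0.90. The shares over all genes compared were 3.31% higher and 3.43% lower. Besides *Fmod* and *Epyc*, the higher genes were *Ogn* (osteoglycin, 661 against 273 CPM, with 643 CPM in MG2), *Prelp* (79.0 against 37.1 CPM) and *Chad* (chondroadherin, 29.8 against 8.56 CPM, with 74.8 CPM in MG2). *Epyc* and *Chad* passed the limit of 20 CPM only through MG1. *Omd*, or osteomodulin, was lower, at 8.36 against 49.7 CPM. The abundant *Dcn* (decorin) was 3302 CPM in MG1 and 1768 CPM in the other cells, a fold of 1.87 that did not reach the limit.

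Of 14 osteogenic genes compared 2 were higher and 7 lower, with a median log2 fold of -0.91, against 3.31% and 3.43% of all genes. *Sp7*, the transcription factor that osteoblasts need, was 24.2 and 18.6 CPM in the suffixes of MG1, against 123 CPM in the other labelled cells. *Alpl*, the phosphatase of mineralizing cells, was 51.0 against 265 CPM, *Ifitm5*, a membrane protein of osteoblasts, 39.1 against 442 CPM, and *Spp1*, which encodes osteopontin, 27.8 against 274 CPM. *Dlx5* and *Dlx6*, homeobox factors upstream of *Sp7*, were 38.3 against 109 CPM and 7.45 against 34.0 CPM. Collagen I, the main protein of bone and of most fibrous tissue, was highest in MG1. *Col1a1* was 20090 CPM in MG1 and 10240 CPM in the other labelled cells, which included 18760 CPM in OG4, and *Col1a2* was 19140 against 8447 CPM. *Msx1*, a homeobox factor of craniofacial mesenchyme, was 254 against 96.5 CPM.

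The dura label found only part of its markers in MG1. *Fxyd5*, a regulator of the sodium pump, was 228 and 255 CPM in the suffixes of MG1 and 121 CPM in the other labelled cells, a fold of 2.01. *Gja1*, which encodes the gap junction protein connexin 43, was 147 CPM in MG1 and 176 CPM in the other cells, and *Crabp2*, a carrier of retinoic acid, was 34.0 and 52.7 CPM. All 3 were higher in MG2 (489, 355 and 71.1 CPM) and highest in MG3 (1440, 1486 and 529 CPM). Of 6 dura genes compared 2 were called higher in MG1, *Fxyd5* and the forkhead factor *Foxp1* (204 against 98.5 CPM), and 0 lower. Of all genes compared 3.31% were higher and 3.43% lower. Both dura calls were lost in thinned cells, and G1 cells alone gave 0 higher and 2 lower. Of 3 arachnoid genes compared, *Tbx18* was higher, having passed the limit of 20 CPM only through MG1. *Cldn11*, a tight junction protein, was lower (4.00 against 35.6 CPM). *Gjb6*, a connexin of MG4, had no UMI among the 5505757 UMIs of MG1. Of 3 pia genes compared, *Cxcl12*, a chemokine, was higher (258 against 76.7 CPM), with 213 CPM in MG2, and 0 were lower. *Ngfr* and *Lama1* were at 1.27 and 0.727 CPM.

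Wnt components were few at this level. Of 47 genes 16 were compared, 2 were higher (*Lgr5* and *Fzd9*) and 3 lower, with a median log2 fold of 0.23. Over all genes compared 3.31% were higher and 3.43% lower. *Lgr5* is itself an MG1 marker, and both higher genes passed the limit of 20 CPM only through MG1. The lower genes were the ligand *Rspo1*, which binds *Lgr5* (12.9 against 29.3 CPM), the transcription factor *Tcf7* (3.81 against 45.1 CPM) and the secreted inhibitor *Wif1* (32.5 against 144 CPM). *Nkd1*, an inhibitor that Wnt signalling induces, was highest in MG1, at 86.6 CPM, but by 1.61-fold over the other cells. *Axin2* and *Lef1*, which Wnt signalling also induces, were at 4.00 and 0.908 CPM, too low to be compared. Against MG2, 3 of 15 Wnt genes were higher in MG1 (*Lgr5*, *Fzd9* and *Sfrp2*) and 2 lower, *Wif1* (76.2 CPM in MG2) and the ligand *Wnt9a* (11.6 against 41.7 CPM). All genes compared with MG2 gave 1.35% higher and 2.13% lower. In the list of BMP and TGF-β genes 5 of 23 were higher and 3 lower, with a median log2 fold of 0.09. All genes compared gave 3.31% higher and 3.43% lower. The higher genes were the ligand *Tgfb2* (84.3 against 36.6 CPM), the latent TGF-β binding proteins *Ltbp1* (109 against 31.9 CPM), *Ltbp2* and *Ltbp3* (107 against 44.0 CPM), and the BMP antagonist *Chrdl1* (36.0 against 14.1 CPM). The lower genes were the ligand *Tgfb1* (20.7 against 67.6 CPM), the BMP antagonist *Nog* (7.08 against 20.2 CPM) and the matrix protein *Tgfbi* (18.7 against 48.4 CPM). *Ltbp2* and *Chrdl1* passed the limit of 20 CPM only through MG1, and *Nog* and *Tgfbi* only through the other cells. These counts are therefore partly set by the filter. Against MG2, 0 of 26 were higher and 4 lower, namely the ligands *Bmp2* and *Gdf10*, with *Nog* and *Tgfbi*. The shares over all genes in that comparison were again 1.35% and 2.13%. Of the FGF genes 3 were compared and 0 were called, with a median log2 fold of -0.14.

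Of 45 transcription factors compared 10 were higher and 12 lower, with a median log2 fold of -0.08, the same as that of all genes. Among all genes 3.31% were higher and 3.43% lower. Besides *Tbx18*, *Foxd1*, *Foxp1*, *Sox9* and *Msx1*, the higher genes included the forkhead factor *Foxc1* (65.6 against 19.2 CPM), the homeobox factor *Six2* (85.4 against 28.8 CPM), *Tbx15* (21.3 against 9.81 CPM) and *Zic4* (43.8 against 19.9 CPM). The lower genes were *Twist2*, *Runx1*, *Runx3*, *Meox2*, *En1*, *Dlx5*, *Dlx6*, *Klf4*, *Osr1*, *Osr2*, *Creb5* and *Mef2c*. *Osr2*, an odd-skipped factor of outer head mesenchyme and joints, was 2.36 against 46.8 CPM, and *Mef2c*, a factor of muscle and bone, was 42.3 against 212 CPM. *En1*, an engrailed factor of skull bone precursors, was 8.17 against 46.0 CPM. *Tbx18*, *Sox9*, *Foxc1*, *Tbx15* and *Zic4* passed the limit of 20 CPM only through MG1, and *Osr2* and *En1* only through the other cells. Both counts are therefore partly set by the filter.

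Of the markers of other cell types 1 gene was called higher and 1 lower, and no endothelial, mast and lymphocyte, neuron and glia, or muscle marker reached 20 CPM in either group. The genes compared were 2 pericyte, 7 myeloid, 2 osteoclast and 4 erythroid markers. Of all genes compared 3.31% were higher and 3.43% lower. Summed endothelial markers were 11.4 CPM in MG1 and 24.5 CPM in the other labelled cells, neuron and glia markers 11.1 and 30.7 CPM, with no UMI of *Sox10*, and muscle markers 16.0 and 8.29 CPM. Pericyte markers were 45.8 and 85.2 CPM, and mast and lymphocyte markers 32.3 and 28.7 CPM. Myeloid markers were 227 CPM (209 and 242 in the suffixes) and ranged from 154 to 235 CPM over the 15 clusters. The 1 gene of these lists that was called higher was *Lyz2*, a lysozyme of macrophages (53.6 against 23.6 CPM, with 62.5 CPM in LIG). *Kcnj8*, a potassium channel of pericytes, was lower (3.09 against 41.4 CPM). Erythroid markers were 668 CPM (541 and 770 in the suffixes) against 538 CPM. Osteoclast markers were 563 against 337 CPM, almost all of it *Ctsk* (519 CPM), a protease that MG2 also held at 587 CPM. Proliferation genes had 0 of 19 higher and 1 lower than in the other labelled cells, or 8 lower without cells of high doublet score, with a sum of 898 CPM in MG1, 531 CPM in MG2 and 1411 CPM in the other cells. Genes of the response to dissociation had 0 of 14 higher and 1 lower. The part of these cells in the differences above was not tested.

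MG1 and MG2 were set against each other most closely, since they share *Matn4*. The profile of MG1 over 7507 genes, centred on the mean of the clusters, was most like that of MG2 (Spearman rho 0.532), then LIG (0.409), MG3 (0.320) and MG4 (0.192), as a description across genes of 1 library. Of 5630 genes compared, 76 were higher in MG1 than in MG2 (1.35%) and 120 lower (2.13%), with a median log2 fold of 0.00. Among cells with a Y-linked UMI and no *Xist* UMI 87 were higher, of which 58 were among the 76 (76.3%), and 106 were lower, of which 89 were among the 120 (74.2%).

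The genes higher in MG1 joined receptors and signalling proteins with contractile and matrix genes. *Rgs4* was 20.3 CPM in MG1 and rested on 1 UMI in MG2, a ratio of 98.5 with an interval from 17.3 to 3924. *Abi3bp* was 217 against 10.1 CPM (fold 21.4, 16.1 to 29.1) and *Tbx18* was 41.6 against 4.34 CPM (fold 9.59, 6.12 to 15.8). *Sfrp2* was 3332 against 383 CPM (fold 8.69). Smooth muscle actins were among them, *Acta2* at 204 against 34.7 CPM and *Actg2* at 32.7 against 3.93 CPM, though neither set MG1 above the other labelled cells, where they were 265 and 25.7 CPM. *Nrgn*, a calmodulin-binding protein, was 20.5 against 2.27 CPM and *Ncald*, a calcium sensor, 28.3 against 3.72 CPM. *Epyc*, *Igfbp2*, *Npr3*, *Fam19a5* and *Slc5a3* were between 5.30-fold and 8.02-fold higher. Among cells with a Y-linked UMI and no *Xist* UMI these folds were 25.0 for *Abi3bp* (15.9 to 41.8), 9.56 for *Tbx18* (4.91 to 21.3), 8.98 for *Sfrp2*, 7.96 for *Acta2*, 12.6 for *Tnmd* and 29.5 for *Lgr5* (12.5 to 91.5, with 5 UMIs in MG2).

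**Figure D4:**
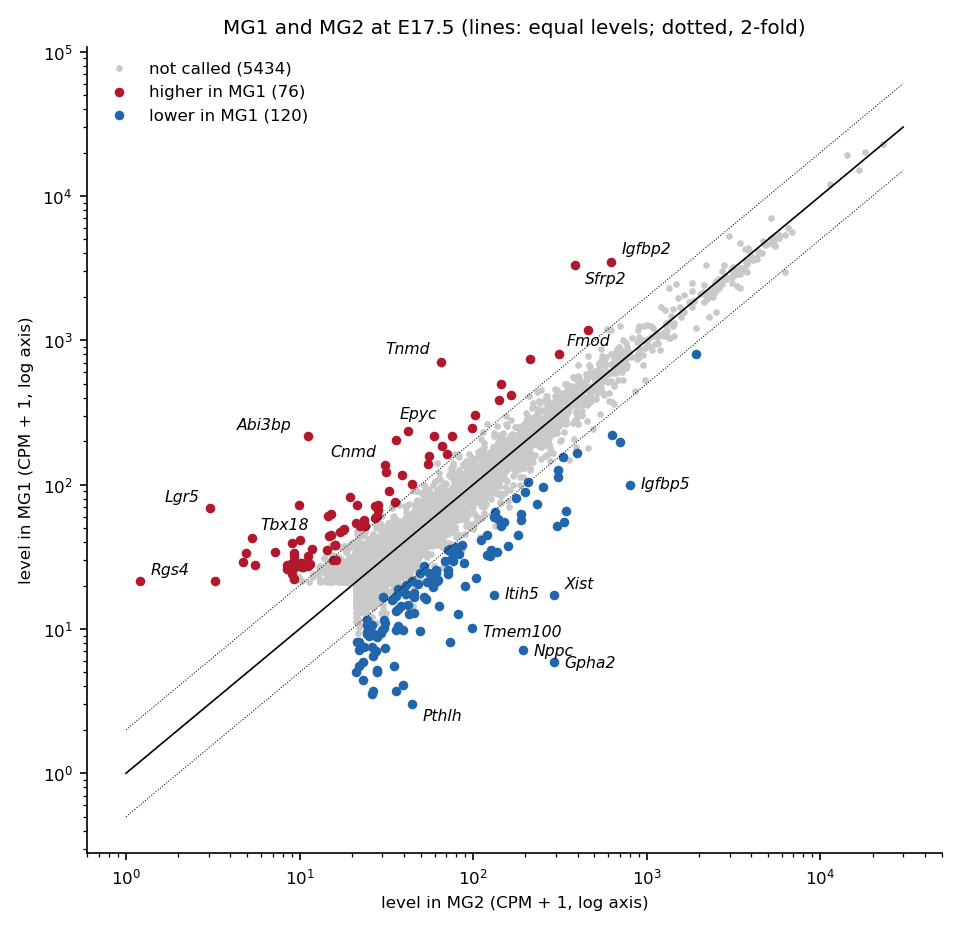
Level of each of 5630 genes in MG1 (vertical axis) and in MG2 (horizontal axis) at E17.5 (CPM + 1, log axes), with the 76 genes called higher in MG1 in red and the 120 called lower in blue. *Igfbp2* and *Sfrp2* lie far above the line of equal levels, at 3459 and 3332 CPM in MG1, and *Gpha2* and *Nppc* at the lower right, at 4.90 and 6.18 CPM in MG1 against 290 and 193 CPM in MG2.

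The genes lower in MG1 than in MG2 were led by secreted peptides. *Gpha2*, a subunit of the glycoprotein hormone thyrostimulin, was 6.14 and 3.92 CPM in the suffixes of MG1 and 290 CPM in MG2. *Nppc*, which encodes C-type natriuretic peptide, a growth signal of cartilage and vessels, was 7.78 and 4.90 CPM against 193 CPM. *Pthlh*, the parathyroid hormone-like peptide that holds back cartilage maturation, was 2.00 against 43.4 CPM. *Tmem100*, a membrane protein linked to BMP signalling, was 9.08 against 97.9 CPM and *Pgf*, a placental growth factor of the VEGF family, 4.00 against 26.9 CPM. *Igfbp5*, a relative of *Igfbp2*, was 98.4 against 799 CPM, so that these binding proteins stood in opposite order in MG1 (3459 CPM of *Igfbp2*) and MG2 (620 CPM of *Igfbp2*). *Itih5*, which binds hyaluronan, was 16.2 against 131 CPM, and *Kcnj8* 3.09 against 38.6 CPM. *Tspan13* (2.72 against 34.9 CPM), *Prmt8* (2.54 against 25.0 CPM), *Slc4a8* (2.72 against 25.4 CPM), *Mcub* (4.54 against 33.9 CPM) and *Pdzd2* (11.6 against 81.0 CPM) were also among them, as was *Xist* (16.2 against 292 CPM). Among cells with a Y-linked UMI and no *Xist* UMI, *Gpha2* was 4.44 against 310 CPM, *Nppc* 5.74 against 202 CPM, *Pthlh* 1.31 against 49.5 CPM and *Igfbp5* 94.5 against 802 CPM.

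C-type natriuretic peptide and its clearance receptor were in opposite order in MG1 and MG2. The ligand *Nppc* was detected in 6.86% of MG1 cells, 54.8% of MG2 cells and 81.8% of MG3 cells, and in 3.88%, 44.5% and 69.5% after thinning to 5000 UMIs. The clearance receptor *Npr3* was 28.2 and 25.5 CPM in the suffixes of MG1 and 4.55 CPM in MG2, and among the clusters MG4 was nearest to MG1, at 25.3 CPM. The signalling receptor *Npr2* was 15.6 CPM in MG1, 22.1 CPM in MG2 and 11.6 CPM in the other labelled cells. *Prkg1*, the cyclic GMP-dependent kinase downstream of it, was 25.4 CPM in MG1 and 9.34 CPM in the other labelled cells.

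Cartilage genes differed between MG1 and MG2 in both directions. On the cartilage list 5 of 16 genes compared were higher in MG1 than in MG2 and 2 lower. Of all genes compared with MG2, 1.35% were higher and 2.13% lower. *Epyc*, *Cnmd* (136 against 30.0 CPM), *Col9a2* (185 against 65.3 CPM), *Col11a1* (1172 against 461 CPM) and *Col27a1* (157 against 54.3 CPM) were higher. *Mia*, a secreted protein of cartilage, was 112 against 307 CPM, and *Chad* 29.8 against 74.8 CPM. *Col2a1* and *Acan* were 1.76-fold and 1.44-fold above MG2, below the limit. Of 6 dura genes compared, *Crabp2* and *Nppc* were lower in MG1 than in MG2 and 0 were higher. The list summed to 2200 CPM in MG1 and 3855 CPM in MG2.

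Genes whose levels followed those of the markers over the 15 clusters were taken by Pearson's r of log2(CPM + 1), which describes 15 clusters of 1 library. *Tnmd* was followed most closely by *Megf6* (r = 0.898) and *Cpxm2* (0.893), both highest in LIG, then *Zfp57* (0.878), highest in EC4, and *Thbs2* (0.863). *Matn4* was followed by *Ptprd* (0.872), *Tenm3* (0.861) and *Tceal3* (0.851). *Lgr5* was followed by *Cnmd* (0.854) and *Rgs4* (0.792), both highest in MG1, then *Fbln7* (0.777) and *Matn4* itself (0.755).

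The spread of single genes among MG1 cells was read from the ratio of variance to mean. In cells thinned to 5000 UMIs (189 in suffix 2 and 223 in suffix 3), the 10 genes with the largest ratio of variance to mean in both suffixes, among 2403 ranked, were *Malat1*, *Igfbp2*, *Col1a1*, *Col1a2*, *Sparc*, *Actb*, *Meg3*, *Sfrp2*, *H2afz* and *Itm2a*. The ratio was not corrected for the mean, which was 94.35 and 108.3 UMIs per cell for *Col1a1*. The ranking therefore cannot separate abundance from differences between cells. *Igfbp2* had a median of 14 UMIs in suffix 2 (range 0 to 64) and 15 in suffix 3 (range 0 to 70) and was detected in 95.8% and 96.9% of the cells. Its variance was 12.6 and 11.6 times its mean. *Sfrp2* had a median of 16 UMIs (0 to 43) and 14 UMIs (0 to 63). *H2afz*, a histone variant of dividing cells, had medians of 3 and 2 UMIs with up to 26 and 23.

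Within MG1, *Igfbp2* went with *Tnmd* and against *Matn4*. Spearman's rho over thinned cells was 0.40 in suffix 2 and 0.47 in suffix 3 between *Tnmd* and *Igfbp2*, and -0.37 and -0.33 between *Matn4* and *Igfbp2*. Between *Matn4* and *Epyc* it was -0.31 and -0.20, between *Tnmd* and *Sfrp2* 0.19 and 0.30, and between *Tnmd* and *Fmod* 0.17 and 0.35. These values describe thinned cells of 1 cluster that share a library.

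The balance of MG1 and MG2 genes was read in single cells, as a description, since the authors' clusters rest on the expression of all these cells. In suffix 2 the 30 genes with the largest fold toward MG1 and the 30 toward MG2 were taken, without *Xist* and Y-linked genes, and the share of their UMIs on the MG1 side was read in the cells of suffix 3 and of E15.5. MG1 cells of suffix 3 had a median of 94.9% (39.6 to 100.0), with 226 of 230 above 50%. MG2 cells of suffix 3 had a median of 25.8%, with 12 of 169 above 50%, and MG2 cells of suffix 1 a median of 18.0%. LIG cells of suffix 3, which took no part in the choice of genes, had a median of 91.5%, so a high share does not by itself mark MG1. MG1 cells at E15.5 had a median of 60.0% (0.0 to 82.5), with 18 of 28 above 50%. Their shares spanned most of the gap between the clusters of E17.5. The medians at E15.5 were 19.2% in MG2 and 27.9% in MG3, but 72.9% in LIG, 57.9% in EC4 and 53.85% in OG1. The share at E15.5 thus did not set MG1 apart from LIG, EC4 and OG1.

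**Figure D5:**
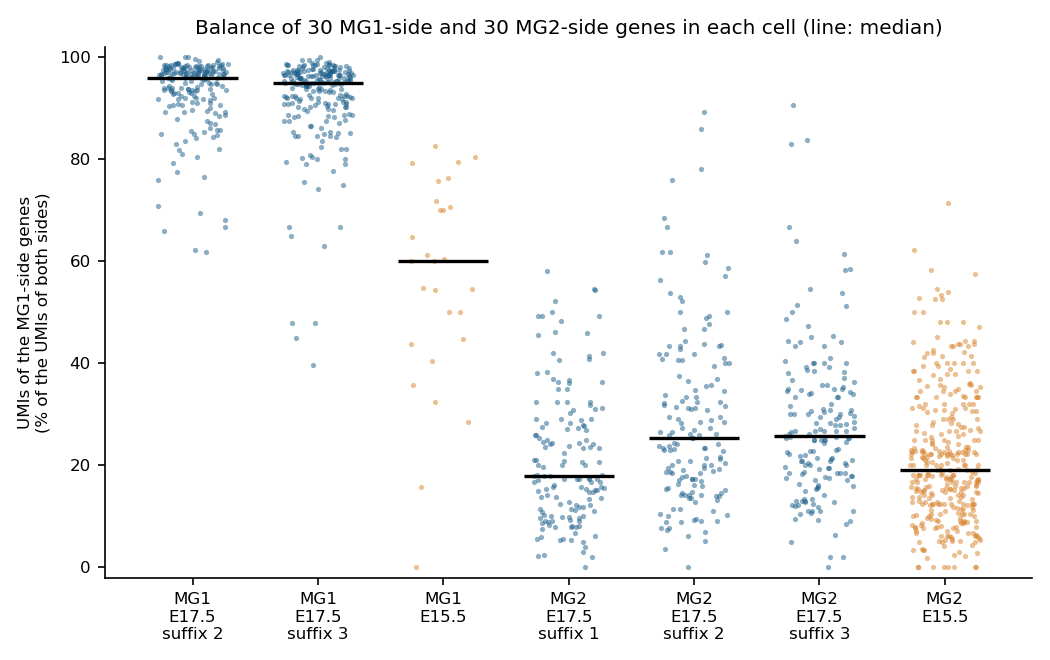
Share of UMIs on the MG1 side (%) among 30 MG1-side and 30 MG2-side genes picked in suffix 2 at E17.5, 1 point per cell, with the median as a line. MG1 cells of suffix 3 lie mostly above 50% (median 94.9%) and MG2 cells below it (medians 18.0% to 25.8% at E17.5), while the 28 MG1 cells at E15.5 spread from 0.0 to 82.5%. MG1 and MG2 of suffix 2 were used to pick the genes.

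The 28 MG1 cells at E15.5 held 261939 UMIs, and only part of the E17.5 profile was seen in them. *Tnmd* was 210 CPM (158 to 273) from 55 UMIs in 12 cells, 13 of them in 1 cell, against 105 CPM in the other labelled cells. *Matn4* was 118 CPM (80.4 to 168) from 31 UMIs in 8 cells, against 41.5 CPM in the other labelled cells, but below MG2 at that stage (313 CPM, 293 to 334). *Lgr5* was detected in 1 cell with 2 UMIs, 7.64 CPM (0.925 to 27.6), against 6.50 CPM in the other labelled cells, so no difference was detectable at this depth. *Tbx18* had no UMI, with an exact interval up to 14.1 CPM, which takes in the 13.1 CPM of the other labelled cells. *Nppc* was 103 CPM from 27 UMIs in 8 cells, between the other labelled cells (33.2 CPM) and MG2 (299 CPM).

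Other genes were higher in MG1 than in the other labelled cells at both stages. *Fmod* was 431 CPM (356 to 519) at E15.5 against 52.2 CPM in the other labelled cells, *Igfbp2* 741 CPM (640 to 853) against 143 CPM, with a UMI in 21 of the 28 cells, *Epyc* 87.8 CPM (55.7 to 132) against 18.7 CPM, and *Cnmd* 153 CPM (109 to 208) against 42.5 CPM, 14 of its 40 UMIs being in 1 cell. *Col2a1* was 718 CPM against 174 CPM, *Acan* 191 against 37.7 CPM and *Col14a1* 1260 against 261 CPM. *Fxyd5* was 573 against 92.9 CPM and *Foxd1* 72.5 against 9.89 CPM. MG2 at E15.5 had 304 CPM of *Fmod*, 399 CPM of *Igfbp2* and 55.6 CPM of *Epyc*. It also had 83.9 CPM of *Cnmd*, 1169 CPM of *Col14a1* and 53.6 CPM of *Foxd1*. For each gene given for MG2, MG1 was less than 2-fold above it at that stage. Of the 30 leading E17.5 genes 27 had a fold above 1 against the rest at E15.5, of which 18 had at least 2-fold and 17 an interval above 1. Of all 189 genes called higher at E17.5, 93 were at least 2-fold higher at E15.5, where 276 of all 5700 genes compared at both stages were (4.84%). Over the 7507 genes the profile of the E15.5 MG1 cells, centred in the same way, gave a rho of 0.357 with MG1, 0.335 with MG2 and 0.307 with MG3 at E17.5, and of 0.309 with MG2, 0.301 with MG3 and 0.046 with LIG at E15.5. Of the 28 cells 4 were at or above the 94th percentile of doublet scores (14.3%), 13 were outside G1 (46.4%, 27.5 to 66.1) and 23 had an *Xist* UMI. Summed erythroid markers were 11010 CPM in these cells and 10850 CPM in the other labelled cells of that stage.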

How the data were processed

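Single-cell RNA was measured in 1 deposited matrix per stage (E15.5 and E17.5), and stages are the only groups. The authors deposited raw UMI counts per gene and barcode, made with Cell Ranger (the E15.5 header names 3.1.0 and lists 31053 genes, the E17.5 matrix 27998), and a table of osteogenic and mesenchymal cells made with Seurat 3.2.0 per the labels, which gave the clusters and the cell cycle phase, and in which deposited percent values give mitochondrial and haemoglobin content. The genome build was mm10. The authors also deposited S and G2/M scores from Seurat, from which they called the phases. Limits on cells were 1000 UMIs and 1000 genes as minima, and 7.5% of UMIs for mitochondrial genes and 3% for Hbb and for Hba genes as maxima. Cells with a label stayed in whether or not they met them, and no MG1 cell was outside them.

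The MG1 cells, the gene lists and the tests were chosen with earlier results of these data known. Counts were summed per cluster and scaled to CPM. With 1 library per stage no test was run, and the suffixes are no labelled replicates. Genes named are the 3 markers, members of the lists, the 30 largest folds over the other labelled cells, the 15 in each direction against MG2, the 10 most variable and the 10 closest to each marker. A few of them are not reported here. Lists cover dura, arachnoid, pia, cartilage, hypertrophic cartilage, tendon and ligament, small leucine-rich proteoglycans, Wnt, BMP and TGF-β, FGF, osteogenic, C-type natriuretic peptide, transcription factor, proliferation and dissociation genes, and endothelial, pericyte, myeloid, mast and lymphocyte, osteoclast, erythroid, neuron and glia, and muscle markers. Doublet scores were computed with Scrublet (scanpy 1.11.5) in each suffix with 0.06 as the expected rate. The threshold it set marked 415 of 8210 E15.5 cells, but 9, 28 and 4 cells of the E17.5 suffixes, so the 94th percentile was used, and doublets were kept. The tools were pandas 2.3.3, scipy 1.17.1, numpy 2.4.6 and matplotlib 3.10.9 under Python 3.11.15, and the levels, intervals and calls were tested on simulated data. Alternatives were means over cells, thinned cells, other scalings, fold limits, filters and cell sets.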

Additional observations from a re-analysis of the deposited data

Results flagged for a closer look

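In MG1, 3 genes had a fold against the rest of the labelled cells with an interval below 1 at E17.5 and above 1 at E15.5, among 101 named genes called at E17.5. The difference between the stages was not tested, and stage, dissociation, sorting and embryos cannot be told apart. *Xist* was 16.2 against 191 CPM at E17.5 (fold 0.0848, 0.0681 to 0.105) and 672 against 526 CPM at E15.5 (fold 1.28, 1.10 to 1.48). *Cldn11*, a tight junction protein of the arachnoid, was 4.00 against 35.6 CPM at E17.5 (fold 0.112, 0.0702 to 0.170) and 45.8 against 21.5 CPM at E15.5 (fold 2.13, 1.10 to 3.74), from 12 UMIs. *Tgfbi*, a matrix protein induced by TGF-β, was 18.7 against 48.4 CPM at E17.5 (fold 0.387, 0.315 to 0.470) and 199 against 33.9 CPM at E15.5 (fold 5.85, 4.35 to 7.71), from 52 UMIs.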

How the results depend on the processing

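No paired analysis was possible because each stage is 1 library and no replicate numbers are shared. For the 30 leading genes, the 3 markers included, no fold over the other labelled cells turned its direction under the alternatives run. The lowest of these folds was 4.73 in the main setting, so a turn was hardly possible, and the remaining called genes were not checked in this way. Their size did move, as *Il33* fell from 5.53 to as low as 2.74 and *Egfl6* from 5.73 to 3.625. Counts of genes (higher and lower than the other labelled cells, then higher and lower than MG2) were 370, 442, 205 and 277 at a fold limit of 1.5, 66, 112, 27 and 48 at a limit of 3, 114, 87, 41 and 64 with at least 50 CPM, and 649, 2813, 685 and 589 without a filter on low levels, so the balance of higher and lower calls turned for the other cells at 50 CPM and for MG2 without a filter. The *Matn4* fold of 9.76 was 9.02 as a mean over cells, 8.94 in thinned cells, 8.26 in G1 cells, 8.60 in suffix 2 and 11.0 in suffix 3. The *Tnmd* fold of 5.12 was 5.40 without high doublet scores, 5.34 with median-of-ratios scaling, 5.33 in cells with a Y-linked and no *Xist* UMI, 4.84 in G1 cells, 4.57 against cells of suffixes 2 and 3 alone, 4.52 in suffix 2 and 4.62 in suffix 3. The *Lgr5* fold of 31.9 was 26.3 against cells of suffixes 2 and 3 alone and 25.0 in suffix 2. The MG1 share of 6.19% was 4.83% of all cells within the limits, 7.56% in suffixes 2 and 3 and 7.68% among cells with a Y-linked and no *Xist* UMI. For the folds of the other named genes, 377 values moved by less than their counting interval and 77 by more, and of the counts of the lists 713 stayed within 1.5 times and 55 did not. The sets of Y-linked and of G1 cells were chosen after seeing the data. The precision of each E15.5 value is limited by 28 cells.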

Other observations

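*Cd74* and *Il33*, best known from immune cells or their signals, were among the 30 leading genes of MG1 against the other labelled cells. *Cd74*, the invariant chain of MHC class II, was 23.3 CPM in MG1 (24.6 and 22.2 in suffixes 2 and 3), 17.4 CPM in MG2 and 4.92 CPM in the other labelled cells, where unlabelled cells had 177 CPM. *Il33*, an alarm cytokine of stromal cells, was 38.3 CPM in MG1 (40.9 and 36.3 in the suffixes), 37.2 CPM in MG2, 44.1 CPM in MG3, 45.8 CPM in MG4 and 6.93 CPM in the other labelled cells, and it was 38.2 CPM from 10 UMIs in MG1 at E15.5. The myeloid markers *Csf1r* and *C1qa* were 8.54 and 23.4 CPM in MG1 and 5.87 and 19.4 CPM in the other labelled cells. The fold of *Cd74* over MG2 was 1.34 in all cells and 0.988 in cells with a Y-linked UMI and no *Xist* UMI. The part of myeloid RNA in *Cd74* was not tested.

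Cells without a label included 18 with both *Lgr5* and *Tnmd*, 10 of 832 in suffix 2 and 8 of 809 in suffix 3, and all 3 markers were found in 8 of 1937 unlabelled cells at E17.5 (0.413%). Among labelled cells outside MG1, EC3 had the highest share with all 3 markers, 10 of 194 cells (5.16%).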
